A study of Mus musculus with 8 samples.

Results

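The cytosolic ribosome is built from ribosomal RNA and a set of ribosomal proteins, each of which is made from its own gene and joins either the large subunit, which forms peptide bonds, or the small subunit, which reads the mRNA. Haematopoietic stem cells keep protein synthesis low, and inherited loss of one copy of single ribosomal protein genes is known to cause Diamond-Blackfan anaemia, a failure of red cell production. The genes described here are all protein-coding genes of the GRCm38 annotation named Rpl or Rps with a number and at most the letter a, l or x, together with Rplp0, Rplp1, Rplp2 and Rpsa. The rule found 80 genes among 54749 genes with a transcript in the files, 49 of the large subunit and 31 of the small subunit. Of these, 78 had enough counts to be tested. The other two were Rpl10l, with 1 read over all libraries, and Rpl39l, with 36 reads, both paralogs that are known for expression in testis. Some genes such as Rps3a1, Fau and Rpl36al encode ribosomal proteins too but have other names, and they are given as a separate list.

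RNA-seq was performed on bone marrow cells sorted as LT-HSCs, the name for stem cells with long-term repopulating capacity. The mice were aged 6 months, with 1 library for each mouse. There were 4 asrij floxed libraries with replicate numbers 1, 3, 4 and 5, and the 4 asrij KO libraries carry the numbers 2, 3, 4 and 5. asrij is the gene Ociad1, the KO removes it from the whole body, and homozygous floxed mice served as controls. The labels give no sequencing batch. The sort was made on LSK cells that carried CD150, and the study's methods list them as CD48+ as well. Gene counts per library ranged from 23412829 to 44874882, and Ociad1 was 31.3 to 66.9 CPM (counts relative to the TMM-scaled library size) in floxed and 11.7 to 19.7 CPM in KO libraries. The summed level of 10 stem cell markers was 100.6 to 127 CPM. One of them, Hoxb5, was at most 0.256 CPM in any library, was at 0 in KO replicates 3 and 5 and had too few counts to be tested. In the same libraries, 10 neutrophil markers summed to 16233 to 50400.2 CPM (none called) and 10 markers of B and plasma cells to 1272 to 3130 CPM, and both sums overlapped between genotypes. Of the latter, Cd79a rose (log2 fold change 0.81, adjusted p = 0.0408) and Jchain fell (-1.66, adjusted p = 0.0239, edgeR). The sums of 3 other lists did not overlap between genotypes. The 10 erythroid markers summed to 27654 to 69827 CPM in floxed and 121817 to 294701 CPM in KO libraries (3 of 10 rose, edgeR quasi-likelihood test, adjusted p under 0.05), the 8 megakaryocyte markers to 37.0 to 93.5 CPM and 193.9 to 204 CPM (7 of 8 rose), and the 10 T and NK cell markers to 104 to 121 CPM and 81.7 to 90.1 CPM (1 of 10 fell). Over all 21902 tested genes, 1.22% rose and 1.75% fell in this test. Hoxb5 was the only marker of these lists at 0 in any library. Fewer cells of a type and less RNA per cell cannot be told apart in bulk libraries, and the part of other cells in the results below was not tested.

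Ribosomal protein genes have a feature that bears directly on their counts, namely the many processed copies in the genome that arose from reverse-transcribed mRNA and therefore carry the exons joined without introns. Annotated processed pseudogenes that share at least one 50-base stretch with a member were assigned to the member with which they share the most, which gave 1053 copies for 77 of the 80 genes. Of 255 coding exon junctions examined in 75 members, 201 (78.8%) had their 40-base stretch, 20 bases of each exon, held whole by a copy. The following stretches are shown because they are read identically from spliced mRNA and, for the first 2, from a copy that received more counts than the gene. They are written 5′ to 3′ in the direction of the mRNA, with the downstream exon in capitals, and come from the GENCODE M21 transcripts (GRCm38).
Rps4x, exons 3 and 4: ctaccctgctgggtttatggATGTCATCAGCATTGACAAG
Rps9, exons 4 and 5: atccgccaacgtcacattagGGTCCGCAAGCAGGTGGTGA
Rpl8, exons 2 and 3: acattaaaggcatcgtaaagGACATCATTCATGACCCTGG
The Rps4x stretch lies uninterrupted in 6 copies, among them Gm13680 at chr2:83353668-83353707 (minus strand), while in Rps4x itself on chromosome X an intron of 369 bases separates its ends. The Rps9 stretch lies in Gm5905 at chr7:141178043-141178082 (minus strand). No processed copy holds the Rpl8 stretch, and Rpl8, on chromosome 15, has a single copy with 297 reads in all.

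Most reads of these families lay on the copies. Over the 8 libraries the 80 genes received 978288 reads and their processed copies 7.76 times as many, and the copies had the larger total for 73 of the 80 members. The total of the copies can hold reads more than once. Rpl7a-ps12, a copy of Rpl7a with 99396 reads, spans Gm6472, a copy of Rps7 with 99374 reads and nearly the same CPM in every library. Overlap of copies with each other or with other genes was not examined further. Rps23, a protein of the decoding centre, had 5813 reads, whereas Rps23-ps1 alone had 98206. Rps9 had 41063 reads and its only copy Gm5905 had 206778. The median share of a gene's family counts (gene plus copies) that lay on the gene itself was 8.52% to 9.34% in the libraries numbered 1 to 3 and 2.97% to 3.61% in those numbered 4 and 5. Each value below is the number of reads assigned to a locus, and reads of the gene and its copies cannot be told apart where they share sequence.

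**Figure D1:**
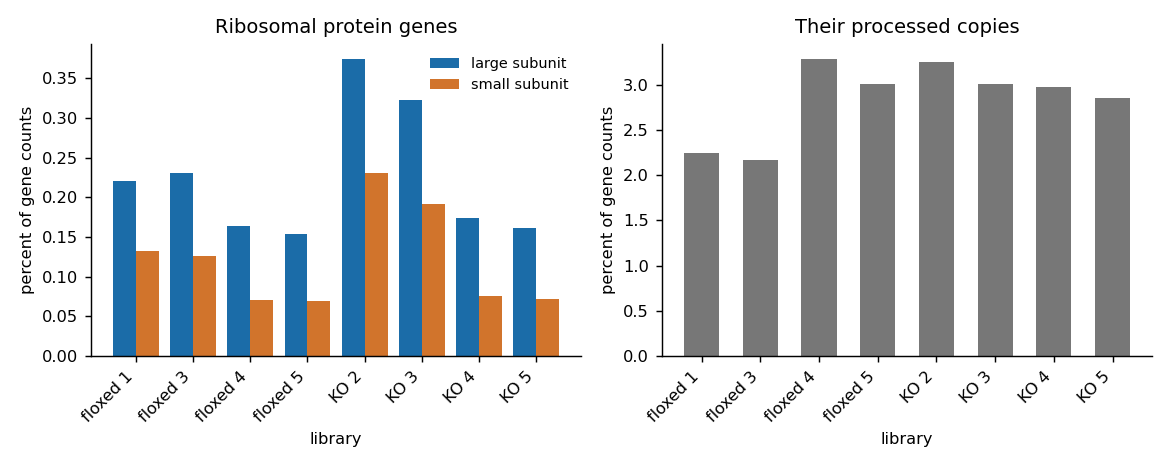
Percent of all gene counts in each library (x axis) that lay on large and small subunit genes (left) and on their processed copies (right, another scale). KO replicates 2 and 3 have the tallest bars of the genes, at 0.375% and 0.323% for the large subunit, whereas the copies take 2.17% to 3.29% of every library.

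The ribosomal protein genes together took 0.354%, 0.356%, 0.235% and 0.223% of gene counts in floxed replicates 1, 3, 4 and 5, and 0.605%, 0.514%, 0.249% and 0.232% in KO replicates 2, 3, 4 and 5. The KO libraries with numbers 2 and 3 were the highest of all 8, and the KO libraries with numbers 4 and 5 lay within the floxed range. The large subunit share was 0.192% ± 0.0389 (SD, n = 4) in floxed and 0.258% ± 0.107 in KO libraries, and the small subunit share 0.0995% ± 0.0343 and 0.142% ± 0.0810. Both shares overlapped between genotypes and differed by less than the spread between KO libraries. Within numbers 1 to 3 the KO share of both subunits combined was 1.58 times the floxed share, and within numbers 4 and 5 it was 1.05 times. Haemoglobin transcripts, which move with genotype and lower the share of all other genes, took 2.84% to 7.66% of floxed and 12.2% to 24.3% of KO counts, and with them left out the large subunit share differed by 0.106 instead of 0.0656 percentage points. The bar plot of shares by library shows these values.

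The balance of the subunits was close in both genotypes. The log2 ratio of large to small subunit counts was 0.74, 0.87, 1.21 and 1.16 in floxed replicates 1, 3, 4 and 5 and 0.70, 0.75, 1.19 and 1.17 in KO replicates 2, 3, 4 and 5. The genotypes overlapped, and the KO mean was lower by 0.04, which is less than the spread between floxed libraries (SD 0.23). The 2 sets of library numbers did not overlap, with 0.70 to 0.87 in numbers 1 to 3 and 1.16 to 1.21 in numbers 4 and 5. When the copies were added to each subunit this separation by number was gone, and the ratio was 0.61, 0.65, 0.60 and 0.62 in floxed and 0.55, 0.57, 0.48 and 0.52 in KO libraries, so that all KO libraries lay below all floxed libraries. No test was made on these totals.

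Levels of single members were compared per kilobase of spliced transcript, on the scale of CPM per kb averaged over the 8 libraries. These values ranged from 0.525 CPM per kb for Rpl3l to 575 for Rpl8, with a median of 20.9. Rpl8, which lies near the peptidyl transferase centre, was followed in the large subunit by Rpl41 (489), a very short protein at the interface of the subunits, Rpl29 (218), Rplp1 (188) and Rplp0 (113), the last 2 being proteins of the stalk that recruits elongation factors. In the small subunit Rps9 (186), Rps2 (118), Rps15 (116) and Rps3 (79.7) were among the highest, the last being a protein at the mRNA entry channel. On the CPM scale the mean levels of tested members differed by up to 678 times. Across the 78 tested members the log2 level per kb went with the share of family counts on the gene (Spearman 0.59, Pearson 0.34). This is a description across genes of the same libraries, which share depth and mapping. Because reads in introns are counted too, a level per kb of spliced transcript includes them. The spliced length is that of the transcript with the most counts, 345 to 5179 bases with a median of 831.5. A long one lowers the value, as for Rps15a (5179 bases), Rps20 (3706) and Rpl12 (2863, annotated as a retained intron), so the order of members depends on this choice.

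The comparison of KO with floxed LT-HSCs asks how the loss of asrij bears on transcripts of the translation machinery. All 78 tested members had a higher fitted level in KO libraries, by a log2 fold change of 0.08 (Rpl5, a protein that also binds Mdm2) to 1.28 (Rps26, a protein at the mRNA exit site), with a median of 0.59 compared with -0.01 over all 21902 tested genes, of which 49.6% had a value above 0. None of the 78 passed an adjusted p of 0.05 (edgeR quasi-likelihood test with Benjamini-Hochberg adjustment), compared with 2.97% of all genes (1.22% higher and 1.75% lower). The smallest adjusted p of a member was 0.0605 for Rpl9. Without adjustment 18 of 78 members had a p under 0.05, compared with 21.8% of all genes, DESeq2 called 7 members (5.12% of all genes higher) and limma-voom called none. With the replicate block over numbers 3, 4 and 5 none passed either, compared with 0.222% of all genes. Without floxed replicate 3, 5 members rose (Rpl9, Rpl27, Rps2, Rps12 and Rps21), compared with 8.9% of all genes. The members share libraries, and many share copies, so their common sign is not 78 separate observations. With library totals and no further scaling the median of all genes moved to -0.20 and that of members to 0.42, with 77 of 78 above 0.

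**Figure D2:**
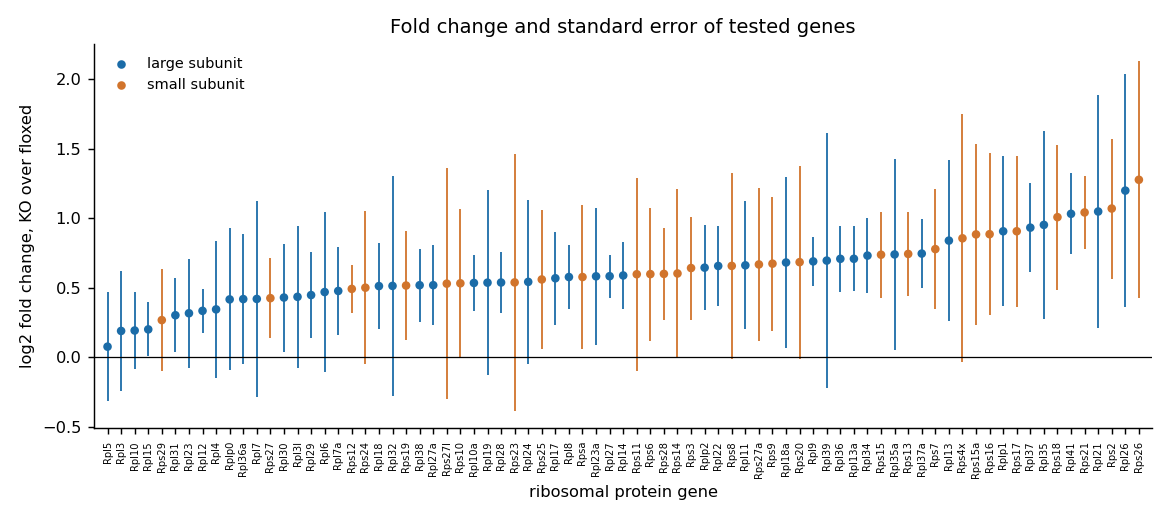
Log2 fold change of KO over floxed libraries (points) with its standard error (lines) for 77 of the 78 tested genes, ordered by size and coloured by subunit. All points lie above 0, from 0.08 to 1.28, and the standard errors range from 0.15 to 0.92.

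The subunits did not stand apart in this comparison. The median log2 fold change was 0.54 over 47 large subunit genes and 0.64 over 31 small subunit genes. All KO libraries lay above all floxed libraries for 8 of 78 members, 4 in each subunit, and the reverse was seen for none. Over all tested genes, 7.1% had all KO libraries above all floxed libraries and 7.66% the reverse. Among these were Rpl9, Rpl13a, Rpl27, Rpl41, Rps2, Rps12 and Rps21, named here because their libraries did not overlap.

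Values of single libraries follow in the order of their numbers. Rpl41 was 221, 175, 190.2 and 162 CPM in floxed and 603, 415, 242 and 271 CPM in KO libraries. All KO libraries were higher, and those numbered 2 and 3 were the highest, with a log2 fold change of 1.03 (SE 0.29, adjusted p = 0.0791, edgeR). Rpl27, one of the genes mutated in Diamond-Blackfan anaemia, was 9.97, 10.1, 9.61 and 10.6 CPM in floxed and 15.6, 12.7, 15.1 and 17.0 CPM in KO libraries, with a log2 fold change of 0.58 (SE 0.15, adjusted p = 0.0679, edgeR). Its level was even within each genotype. Rps2, a protein of the mRNA entry channel, was 74.5, 14.4, 108 and 118 CPM in floxed and 162, 127, 196 and 178 CPM in KO libraries, and its log2 fold change of 1.07 (SE 0.50, adjusted p = 0.251, edgeR) became 0.73 (adjusted p = 0.0446, edgeR) without floxed replicate 3, the lowest library. Rps21 had few reads, 1.03 to 1.34 CPM in floxed and 1.88 to 2.77 CPM in KO libraries (log2 fold change 1.04, adjusted p = 0.0629, edgeR), and another gene, Mir3091, overlaps it.

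The other members with high levels overlapped between genotypes. Rpl8 was 296, 315, 449.5 and 510.3 CPM in floxed and 558, 486, 683 and 618 CPM in KO libraries, with a log2 fold change of 0.58 (SE 0.23, adjusted p = 0.177, edgeR). Rps9 was 151, 121, 87.5 and 70.2 CPM in floxed and 291, 252, 71.2 and 72.4 CPM in KO libraries, so that the KO libraries were the highest among numbers 1 to 3 and within the floxed range among numbers 4 and 5. Rplp0, which is often used as a reference gene in qPCR, was 183, 187, 74.9 and 78.8 CPM in floxed and 298, 248, 74.7 and 79.6 CPM in KO libraries, with the KO libraries the highest among numbers 1 to 3 and on both sides of the floxed values among numbers 4 and 5. For Rplp1, Rpl29, Rps3 and Rps15 the log2 fold changes were 0.91, 0.45, 0.64 and 0.74, with adjusted p from 0.201 to 0.442 (edgeR).

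**Figure D3:**
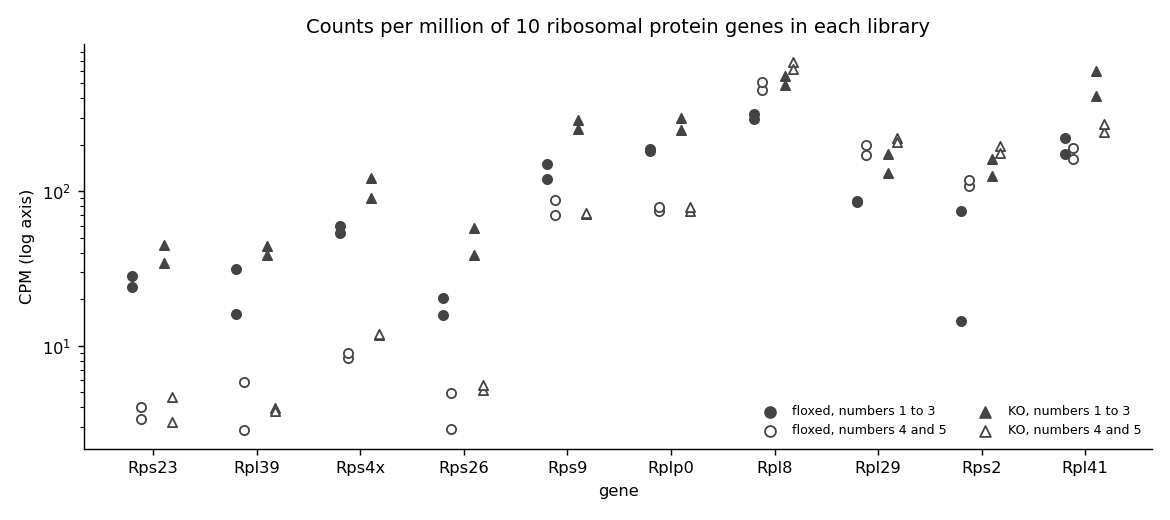
CPM on a log axis of 10 members in each library. Circles are floxed and triangles KO, filled for library numbers 1 to 3 and open for numbers 4 and 5. For Rps23, Rpl39, Rps4x and Rps26 the open symbols lie at 2.84 to 11.8 CPM and the filled ones at 15.8 to 122 CPM, for Rpl8 they mix, and for Rps2 floxed replicate 3 lies alone at 14.4 CPM.

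Ribosomal protein genes differed more between library numbers 1 to 3 and 4 to 5, which each hold 2 floxed and 2 KO libraries, than between genotypes in their median. This division was first seen as a principal component of these counts, so differences between the sets are given as a description without a test. Members were lower in numbers 4 and 5 by a median log2 difference of -1.20, compared with -0.07 over all tested genes, and 72 of 78 were lower. The median was -0.83 for the large and -1.47 for the small subunit, and it was -0.94 among floxed and -1.35 among KO libraries alone. All libraries with numbers 4 and 5 lay below all with numbers 1 to 3 for 49 of 78 members (25 large and 24 small), compared with 13.3% of all tested genes, and above them for none, compared with 12.5% of all tested genes. Mitochondrially encoded transcripts were also lower in numbers 4 and 5 (0.852% to 1.16% of gene counts) than in numbers 1 to 3 (1.23% to 1.86%), and their part in the difference was not tested. The marker lists did not separate the sets.

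Rps23 was 28.2, 24.2, 34.4 and 44.8 CPM in floxed 1, floxed 3, KO 2 and KO 3, and 3.997, 3.37, 3.23 and 4.64 CPM in floxed 4, floxed 5, KO 4 and KO 5, a log2 difference of -3.08 (SE 0.19). Each of the 4 lower libraries had at most 4.64 CPM and each of the others at least 24.2 CPM. Rpl39, a protein that lines the exit tunnel, was 31.2, 16.2, 44.5 and 38.8 CPM against 5.83, 2.84, 3.94 and 3.80 CPM in the same order, a log2 difference of -2.94 (SE 0.31). Rps4x, the X-linked form of its protein, was 53.7, 59.3, 122 and 91.0 CPM against 8.38, 8.97, 11.7 and 11.8 CPM, also a log2 difference of -2.94 (SE 0.15). Within each set of numbers the KO libraries of Rps4x lay above the floxed libraries. Rps26 was 15.8, 20.4, 58.1 and 38.5 CPM against 4.97, 2.87, 5.14 and 5.54 CPM, a log2 difference of -2.71 (SE 0.27). The member with the largest difference upwards was Rps2 (0.86, SE 0.42), followed by Rpl29 (0.80, SE 0.16) and Rpl8 (0.48, SE 0.14), and none of these 3 had separate sets. The Rps2 value includes floxed replicate 3, by far its lowest library, and its place in this order without that library is not given here. The plot of 10 members by library shows both patterns.

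Adding the processed copies changed this picture. The median log2 difference of numbers 4 and 5 from 1 to 3 became 0.13 instead of -1.20, with 50 of 78 families above 0. Sets lay apart downwards for 4 of 78 families, compared with 12% of all genes, and upwards for 12 of 78, compared with 12.6% of all genes. The share of family counts on the gene itself was higher in every library of numbers 1 to 3 for 59 of 78 members and higher in every library of numbers 4 and 5 for 3. For Rps23 the family had 366, 297, 591 and 569.6 CPM in numbers 1 to 3 and 489, 393, 411 and 452 CPM in numbers 4 and 5, which overlap, while the gene's own share of the family was 5.92% to 7.95% and 0.787% to 1.03%. For Rps9 the copy Gm5905 was 509, 312, 740.5 and 672 CPM in numbers 1 to 3 and 1029.5, 1007, 1199 and 1158 CPM in numbers 4 and 5, opposite to Rps9 itself. Across 78 members, the difference of a member had a Pearson correlation of 0.06 (Spearman 0.02) with that of its family, 0.36 (0.32) with the GC content of the transcript, -0.25 (-0.33) with the log2 median exon length, 0.26 (0.0035) with the share of family counts on the member, -0.04 (-0.08) with the log2 number of copies and 0.04 (0.03) with the share of 50-base stretches found elsewhere. These are descriptions over genes of the same libraries.

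**Figure D4:**
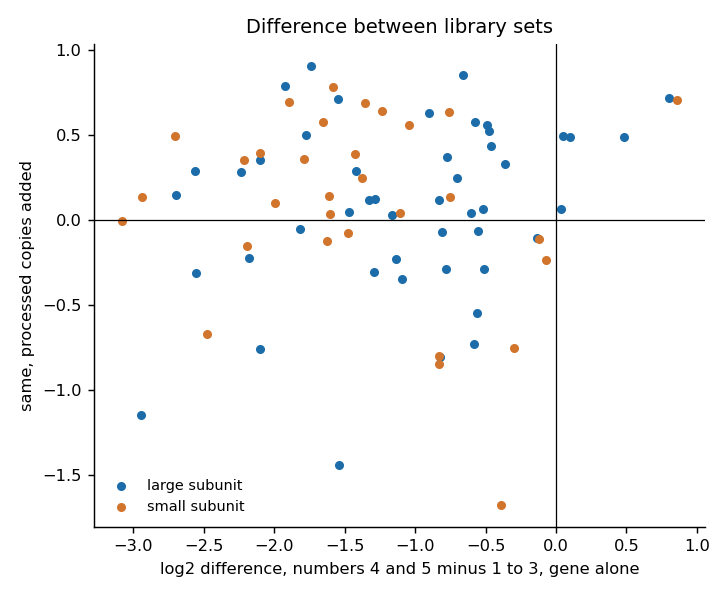
Log2 difference between library numbers 4 and 5 and numbers 1 to 3 for each tested gene alone (x axis) and with its processed copies added (y axis), coloured by subunit. Most points lie left of 0 (median -1.20), and on the y axis they spread to both sides of 0 (median 0.13).

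Members that share little sequence also differed. Among the 7 tested members with under 10% of their 50-base stretches found elsewhere, the log2 difference of numbers 4 and 5 ranged from -2.19 (Rps20) to 0.48 (Rpl8), with a median of -0.78, compared with -1.28 for the other 71. Their median log2 fold change between genotypes was 0.64, compared with 0.58 for the other 71. Rpl3l, which has no shared stretch, differed between the sets by -0.56 (SE 0.49).

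With the number set as a term in the model, 39 of the 78 members rose in KO LT-HSCs and none fell (adjusted p under 0.05, edgeR), compared with 8.88% of all genes that rose and 9.65% that fell. The number set was first seen in these same counts. Adjusted p-values of fits that hold this term, here and below, may therefore be too small. These were 23 large and 16 small subunit genes. The median log2 fold change of members was 0.52. Among them, Rps4x rose by 0.69 on the log2 scale (SE 0.14, adjusted p = 0.0128), Rpl22, whose loss is known to disturb lymphocyte development, by 0.65 (SE 0.12, adjusted p = 0.00889), Rpl41 by 0.95 (SE 0.21, adjusted p = 0.0155) and Rpl8 by 0.61 (SE 0.14, adjusted p = 0.0187). Rps9 (0.43, adjusted p = 0.209), Rplp0 (0.28, adjusted p = 0.195) and Rps23 (0.37, adjusted p = 0.163) did not pass. Each of 6 members passed in every fit of this kind with 1 library left out, namely Rpl13a, Rpl22, Rpl37, Rplp2, Rps16 and Rps4x, named here after their values were seen. The share of all genes that passed in every such fit was not counted. In the fit with the lowest share, 3.29% of all genes rose. Other annotated genes overlap Rpl13a (6 genes), Rpl37, Rplp2 and Rps16 (1 each), and none overlaps Rpl22 or Rps4x. With 1 library left out the number of members called changed, as did the share of all genes that rose, given in brackets. The members numbered 10 without KO replicate 2 (3.48%), 14 without floxed replicate 5 (3.29%), 16 without KO replicate 4 (3.83%), 16 without floxed replicate 1 (5.32%), 18 without KO replicate 3 (4.47%), 22 without KO replicate 5 (4.26%), 42 without floxed replicate 4 (6.27%) and 51 without floxed replicate 3 (21.5%). It was 12 when library totals replaced TMM scaling (3.88%).

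Within numbers 4 and 5, 19 of 78 members rose and none fell, compared with 16.3% of all genes that rose and 16.5% that fell, with 2 libraries for each genotype. The median log2 fold change of members was 0.27, and 65 of 78 were above 0. Within numbers 1 to 3 the median was 0.74 and 77 of 78 were above 0, and no member passed, compared with 0.00855% of all genes (2 genes), while 61 of 78 had an unadjusted p under 0.05, compared with 17.7% of all genes. No difference of the genotype effect between the sets passed a test of the interaction (edgeR, adjusted p under 0.05, 0 of 78 members and 0% of 21902 genes), with an unadjusted p under 0.05 for 20 of 78 members, compared with 8.51% of all genes, and a median difference of -0.47.

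The genotype comparison was repeated with the copies added to their members. The median log2 fold change was then 0.44, with 77 of 78 families above 0, compared with 50.9% of all genes above 0. Rpl37a, a zinc-binding large subunit protein, was the 1 family that rose, by 0.89 on the log2 scale (adjusted p = 0.0470, edgeR), compared with 1.88% of all genes. Its family was 192, 124, 227 and 179 CPM in floxed and 392, 331, 299 and 317 CPM in KO libraries, without overlap. With the number set in the model, 14 families rose and none fell, compared with 9.83% and 9% of all genes, and 12 of the 14 were among the 39 members called alone. All KO libraries lay above all floxed libraries for 12 of 78 families, compared with 7.82% of all genes. With 1 library left out the number of families called, beside the share of all genes that rose, was 35 without floxed replicate 3 (21.5%), 18 without floxed replicate 4 (6.85%), 9 without KO replicate 5 (4.08%), 5 without floxed replicate 1 (5.05%), 5 without KO replicate 4 (3.86%), 4 without KO replicate 3 (5.16%), 3 without KO replicate 2 (3.66%) and 3 without floxed replicate 5 (3.95%). Rps2 was the family with the second smallest adjusted p of these (0.74, adjusted p = 0.00972, edgeR) after Rplp2 (0.68, adjusted p = 0.00882). For Rps4x the family fold change was 0.43 (adjusted p = 0.0679).

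The 21 genes whose mutation causes Diamond-Blackfan anaemia or, for Rps14, whose loss marks the 5q- syndrome, spanned the range of all members. None passed in the genotype comparison, with a median log2 fold change of 0.60 from 0.08 (Rpl5) to 1.28 (Rps26), and 11 of 21 rose with the number set in the model, beside 39 of all 78 members and 8.88% of all genes. The 3 with the highest fold change were Rps26, Rpl26 and Rpl35, with 1.28 (SE 0.85, adjusted p = 0.422), 1.20 (SE 0.84, adjusted p = 0.446) and 0.95 (SE 0.67, adjusted p = 0.451, edgeR). Rpl26 was 25.6, 9.21, 4.59 and 4.06 CPM in floxed and 50.2, 39.3, 4.33 and 6.09 CPM in KO libraries. The difference between genotypes in Rpl26 lay in the libraries with numbers 1 to 3. Rps14 was 27.9, 23.5, 8.84 and 7.36 CPM in floxed and 46.8, 36.9, 9.69 and 9.57 CPM in KO libraries, with a log2 fold change of 0.60 (SE 0.61, adjusted p = 0.616, edgeR).

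Paralog pairs can show a change in the composition of ribosomes. Rpl3l, known from muscle, was 0.213 to 1.27 CPM in floxed and 0.710 to 1.05 CPM in KO libraries, far below Rpl3 with 27.0 to 77.1 and 30.1 to 81.8 CPM. Rpl10l and Rpl39l, at 1 and 36 reads in all, were barely detected, beside 8265 reads for Rpl10 and 5696 for Rpl39. In contrast, Rps27l, a target of p53, was comparable to Rps27, with 1448 and 628 reads and 9.27 and 6.49 CPM per kb, and 98.6% of the 50-base stretches of Rps27 occur elsewhere. Rps27a, which encodes a fusion of ubiquitin to its ribosomal protein, had 20.4 CPM per kb. Rpl7l1 and Rpl36al, at 28.95 to 48.3 and 29.4 to 71.5 CPM, exceeded the reads assigned to the Rpl7 locus in the libraries with numbers 4 and 5 and to the Rpl36a locus in all libraries. Most reads of these families lay on processed copies. With the copies added, Rpl7 was 435 to 710 CPM and Rpl36a 97.6 to 219 CPM, above these paralogs in all libraries. The order of the paralogs therefore depends on where shared reads were assigned. Rpl22l1, which is known to stand in for Rpl22, was 2.41 to 13.4 CPM beside 20.96 to 65.6 CPM for Rpl22. None of the paralogs passed in the genotype comparison. With the number set in the model Rps4l, annotated as a transcribed processed pseudogene, rose by 1.31 on the log2 scale (adjusted p = 0.0105, edgeR) from 1.55 to 9.54 CPM in floxed and 6.68 to 17.1 CPM in KO libraries, and the part of reads from other Rps4x copies in it was not tested.

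Genes around the ribosome were read from lists. Beside the counts below, 1.22% of all tested genes rose and 1.75% fell in the genotype comparison. With the number set in the model these shares were 8.88% and 9.65%. Of the ribosomal proteins with other names, Rps3a1 was 48.7, 57.4, 12.8 and 12.99 CPM in floxed and 79.7, 77.7, 16.8 and 18.7 CPM in KO libraries. The list of 6 that holds it, Fau, Rpl36al and the paralogs Rpl22l1 and Rpl7l1 among others had a median log2 fold change of 0.64, no call, and 2 that rose with the number set in the model (among them Rps3a1). Of 16 translation factors and related genes whose mRNAs begin with a pyrimidine run, none passed (median 0.31), and with the number set in the model 3 rose, namely Eef1b2, Eef1d and Eif3k. Eef1a1, the most abundant of them, was 965 to 1876 CPM in floxed and 787 to 1719.5 CPM in KO libraries. Of 30 ribosome assembly and RNA polymerase I genes none passed (median 0.21), and with the number set in the model 5 rose (Fbl, Gar1, Sbds, Ubtf and Taf1c) and Polr1a, the largest subunit of RNA polymerase I, fell. Of 16 mTORC1 and Myc genes none passed (median -0.12), and with the number set in the model Akt1s1 rose and Rps6kb1, a kinase of ribosomal protein S6, fell.

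Mitochondrial ribosomal protein genes, which build the separate ribosome of mitochondria, had a median log2 fold change of 0.30 over 78 genes. Of these 78, Mrpl53 alone passed, with 9.12, 8.91, 11.2 and 12.4 CPM in floxed and 19.6, 15.4, 17.7 and 18.2 CPM in KO libraries, a log2 fold change of 0.77 (SE 0.17, adjusted p = 0.0471, edgeR). It did not pass with library totals, with every gene of at least 1 count or with haemoglobin left out. Over all tested genes, 1.22% rose in the genotype comparison. With the number set in the model 21 of 78 rose and none fell, compared with 8.88% of all genes that rose. The number was 6 without KO replicate 2 (3.48% of all genes) to 32 without floxed replicate 3 (21.5% of all genes). Between the number sets their median log2 difference was -0.04, compared with -1.20 for cytosolic ribosomal protein genes and -0.69 for the 16 translation factors. The difference between these lists was not tested. Of the 288 processed copies identified by name alone, 150 were tested, none passed and the median log2 fold change was 0.44.

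The translation of ribosomal protein mRNAs is controlled together through a terminal oligopyrimidine motif, a C at the first transcribed base followed by further C or T. The following starts are given because they show this motif in members of both subunits. Each window of 30 bases begins 10 bases before the RefSeq start (GRCm38), with the pyrimidine run from the start site in capitals.
Rps6, chr4:86857348-86857377, minus strand: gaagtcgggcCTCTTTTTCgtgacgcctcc
Rpl15, chr14:18270967-18270996, minus strand: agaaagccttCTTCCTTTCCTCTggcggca
Rps15a, chr7:118116128-118116157, minus strand: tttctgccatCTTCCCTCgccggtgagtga
Rpl35, chr2:39005112-39005141, minus strand: ccgccctttcCTCTTTCTCTCgaaccaggc
A C followed by at least 4 further pyrimidines on the transcribed strand stood exactly at the start of 13 of 60 members found in the RefSeq table (21.7%) and of 3.01% of 27025 genes. Within 5 bases either side of the start the numbers were 28 of 60 (46.7%) and 21.2%. The large and small subunits had 7 of 37 and 6 of 23 at the start itself. A match describes these windows and says nothing of translation, which RNA-seq did not measure.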

How the data were processed

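RNA-seq of LT-HSCs from 4 asrij floxed and 4 asrij KO mice was used. Reads had been checked with FastQC, trimmed with Trim Galore and aligned with Bowtie2 to transcripts of GRCm38/mm10 per the study's methods, and the authors deposited a raw count for each of 138930 Ensembl transcripts. The counter, the annotation release, tool versions and use of strand are not given in the sources used here. All 8 deposited files hold whole-number counts. In 7 of them columns are separated by tabs under another file type, so their unit was recorded as other.

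Identifiers were matched to GENCODE M21 (GRCm38), and each gene is represented by whichever of its transcripts had the most counts over all libraries. In 192 of 192 pairs of transcripts of a gene with equal ends, at least 200 counts and spliced lengths at least 1.5 times apart, the counts lay within 1% of each other, so a count covers the genomic span with its introns and overlapping genes (33 of 80 members have one over 1% of their count). This differs from the stated alignment to transcripts. Reads that fit several loci cannot be told apart in these counts.

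Genes were filtered with filterByExpr, scaled by TMM and tested with the quasi-likelihood test of edgeR 4.0.16 (R 4.3.3). Counts of tested members in a library were 5 to 23515 (median 561.5), and the standard errors of their log2 fold changes 0.15 to 0.92. The procedure was tested on simulated data. DESeq2 1.42.0, limma 3.58.1, other scalings and filters, sums over transcripts and leaving out each library were also tried. The number set in the model, added copies and their combinations were chosen after seeing the data. The members, lists and tests were chosen with earlier results of these data known. Members were named in full if they passed the test in the genotype comparison (none did), were the 5 highest of a subunit per kb, were the most different with separate number sets, belonged to fixed paralog pairs or were the 3 most changed of the anaemia list.

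Replicate numbers 3, 4 and 5 occur in both genotypes in the labels, for different mice. After subtraction of genotype means, same-numbered libraries correlated at 0.43, 0.45 and 0.71 across genes, but KO 5 with floxed 4 (0.45) and floxed 1 with KO 3 (0.62) did so too, so the pairing by number cannot be told apart from the number sets. p-values reflect the spread between mice. Results of some genes and sequences are not reported here.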

Additional observations from a re-analysis of the deposited data

How the results depend on the processing

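The number of members called between genotypes, 0 with edgeR, was 1 with at least 10 counts in every library of a group, 7 with DESeq2, 2 with counts summed over transcripts, 1 with copies added, 39 with the number set in the model, 14 with both, and 51, 10 and 12 with the number set in the model and floxed replicate 3 left out, KO replicate 2 left out or library totals. With 1 library left out it was 0 to 5, with 5 without floxed replicate 3. With the replicate block over numbers 3, 4 and 5 it was 0 (median log2 fold change 0.42), and 0.222% of all genes passed. The 1 list gene called (Mrpl53) became 0 with library totals, every gene of at least 1 count, haemoglobin left out or the replicate block, 14 with DESeq2, 2 with sums, 35 with the number set in the model with or without copies, and 61, 12 and 15 with floxed replicate 3 left out, KO replicate 2 left out or library totals beside it, with a range of 0 to 12 when 1 library was left out. The share of all genes that rose also moved with the setting. It was 1.22% with edgeR, 5.12% with DESeq2, 1.34% with sums and 8.88% with the number set in the model. With floxed replicate 3 left out, KO replicate 2 left out or library totals beside the number set it was 21.5%, 3.48% and 3.88%. When 1 library was left out without the number set it was 0.18% to 8.9%.

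The large subunit share, higher by 0.0656 percentage points in KO, was higher by 0.106 without haemoglobin, 0.129 with sums, 0.123 within numbers 1 to 3, 0.00813 within numbers 4 and 5 and 0.230 with copies, and by 0.0266 (without KO replicate 2) to 0.0979 with 1 library left out. The small subunit share, higher by 0.0428, was higher by 0.0959 with sums, 0.0820 within numbers 1 to 3, 0.00367 within numbers 4 and 5 and 0.227 with copies. The difference in the log2 ratio of large to small subunit, -0.04, ranged from -0.13 to 0.044 with 1 library left out and turned direction without floxed replicate 4 or 5 or KO replicate 2 or 3. With copies added, members with separate and lower numbers 4 and 5 went from 49 to 4, and the median difference from -1.20 to 0.13. Of 625 values of 25 named members, 583 kept direction and side of the threshold, 36 passed it and 6 turned direction. With 1 library left out, Rps23 ranged from -0.081 to 1.09, Rpl3 from -0.052 to 0.55 and Rps27l from -0.040 to 0.92, and with the number set in the model and library totals Rpl3 was -0.011, Rpl10 -0.045 and Rpl7 -0.021. The cause of these changes was not tested.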
